A study of Mus musculus with 36 samples.

Results

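Interferon-stimulated genes are genes whose transcription rises when a cell senses interferon. A list of 40 of them was taken by mouse gene symbol, as known interferon targets, and all 40 were found among the 19001 genes of the deposited paired-end table and among the 17697 genes of the single-end table. The study sequenced total RNA of liver, spleen and thymus from mice whose p53 is wild type (wt) and from mice, labelled d24, that lack the C-terminus of p53, a region that regulates how this DNA-damage-responsive transcription factor acts. The paired-end table holds wt tissues without treatment and wt tissues after X-rays. The single-end table holds wt and d24 tissues that are all titled as irradiated. Where irradiation is described, it is a dose of 2 Gy with harvest after 3 h. Each of the 12 groups had 3 libraries, of 44348579 to 81322683 reads in the paired-end and 20481048 to 38042710 in the single-end table. Tissue markers stood where their labels put them: in untreated mice, hepatocyte markers summed to a signal of at least 348598 in liver and at most 226 elsewhere, B cell markers to at least 1163 in spleen and at most 121 elsewhere, and thymocyte markers to at least 7218 in thymus and at most 179 elsewhere. The labels give no age, strain, sex or animal for any of them, so that p-values measure the spread between these libraries, which may be partly technical. For the single-end libraries the labels also go against themselves: the characteristics of the d24 liver, d24 thymus and wt spleen libraries say control, and those of all d24 libraries say WT, whereas the titles say irradiated and d24. Groups follow the titles here. Values per gene do not show which part of p53 is missing, so they give no check of the genotype.

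Type I interferons bind a receptor whose kinases activate STAT2, which joins IRF9 in a complex that binds the interferon-stimulated response element in front of its targets. Interferon gamma has its own receptor and acts through a different element, and several targets, such as guanylate-binding proteins, immunoproteasome subunits and CXCL10, respond to both. The products sense viral RNA, degrade it, block viral entry or budding, conjugate the ubiquitin-like protein ISG15, and cut and transport peptides for antigen presentation. The genes are best known from infection, but most tissues express many of them at a low level without it, above all immune cells.

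Promoter sequence of RefSeq (build GRCm38.p6, 250 bases before to 50 after the annotated start) was at hand for 30 of the 40 genes. The core of the response element, written as GAAA, any 2 bases and GAAA again and searched on both strands, occurred in 16 of these 30 genes and in 3.99% of the 27025 genes of the promoter table. The core of the interferon gamma element, TTCNNNGAA, occurred in 7 of the 30 and in 9.55% of all genes. A match describes letters only and is not a measured site. The stretches below are shown for genes that the comparisons turn on, 5′ to 3′ on the gene's own strand, with the response element core in capitals. They lie at chr5:92349053-92349139 on the minus strand (Cxcl10), chr8:71537547-71537642 on the minus strand (Bst2), chr4:156200835-156200936 on the minus strand (Isg15), chr19:34640745-34640853 on the plus strand (Ifit1), chr12:26456523-26456612 on the minus strand (Rsad2) and chr11:58199482-58199571 on the plus strand (Igtp).
Cxcl10: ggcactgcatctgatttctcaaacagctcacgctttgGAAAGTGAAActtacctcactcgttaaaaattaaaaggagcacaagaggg
Bst2: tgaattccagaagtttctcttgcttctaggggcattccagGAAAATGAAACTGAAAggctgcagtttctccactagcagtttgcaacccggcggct
Isg15: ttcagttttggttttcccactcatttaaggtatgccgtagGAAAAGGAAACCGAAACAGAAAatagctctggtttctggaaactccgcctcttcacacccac
Ifit1: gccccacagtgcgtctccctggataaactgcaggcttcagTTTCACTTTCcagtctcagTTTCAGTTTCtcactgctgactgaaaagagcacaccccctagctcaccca
Rsad2: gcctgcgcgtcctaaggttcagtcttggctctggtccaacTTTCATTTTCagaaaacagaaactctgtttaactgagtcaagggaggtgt
Igtp: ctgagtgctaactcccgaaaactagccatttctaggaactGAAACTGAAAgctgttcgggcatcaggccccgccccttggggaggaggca
The first core begins 213 bases before the start of Cxcl10, 130 before that of Bst2, 78 before that of Isg15, 104 before that of Ifit1, 120 before that of Rsad2 and 34 before that of Igtp. In Bst2 and Isg15 the cores overlap, giving 2 and 3 matches in tandem. In Ifit1 there are 2 separate matches, both in the reverse orientation, TTTC, 2 bases and TTTC. The windows of Irf7, Tap1, Ifi35, Cmpk2, Oasl1, Herc6, Samd9l and Ifit2, which also enter the comparisons, held no match to the response element core.

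In untreated wt mice the 3 tissues had different sets of these genes at their highest level. Between spleen and liver, 21 of the 40 were higher in spleen and 11 lower, where 42.5% and 44.6% of all 14286 genes tested were. For thymus against liver the counts were 18 higher and 9 lower (41.3% and 45.5% of all genes), and for spleen against thymus 12 higher and 18 lower (39.3% and 36.7%). Most genes of these tissues passed this test, so the counts of the 40 are a description of where each was high. Levels are given as signal, the deposited normalised reads per 1000000, and differences on the scale of log2(signal + 0.5), which understates the change of genes with low signal. A gene entered a test by limma when its signal reached 1 or more in 3 or more of the libraries compared, and it was called at an adjusted p (Benjamini-Hochberg, over all genes tested) under 0.05.

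Spleen stood above both other tissues for a group that includes viperin and its neighbour. Rsad2, which encodes the antiviral enzyme viperin, had a signal of 29.0, 25.1 and 31.4 in liver, 778, 359.8 and 569.9 in spleen, and 15.3, 9.96 and 9.45 in thymus. Cmpk2, a mitochondrial nucleotide kinase gene beside Rsad2, had 9.97, 7.01 and 10.2 in liver, 119, 93.3 and 107 in spleen, and 10.2, 7.69 and 8.68 in thymus. Both were many-fold higher in every spleen library than in any library of the other tissues, with log2 differences of 4.23 for Rsad2 and 3.49 for Cmpk2 against liver. Oas3, which makes the 2'-5' oligoadenylates that activate RNase L, had 4.01, 2.45 and 2.60 in liver, 64.0, 51.2 and 71.3 in spleen and 11.4, 8.45 and 13.2 in thymus, so that all 3 tissues were apart. Isg15 had 18.4, 17.4 and 18.5 in liver, 143, 64.1 and 142 in spleen and 31.8, 21.2 and 22.8 in thymus. Its spleen level was lowest in replicate 2 and still above every library of the other tissues. Irf9, the DNA-binding part of the type I interferon factor, was higher in spleen (105, 72.7 and 89.9) than in liver (44.6, 38.2 and 42.4) or thymus (53.5, 40.1 and 47.0), and liver and thymus did not differ beyond their spread (log2 difference 0.16).

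Thymus was highest for a different set of these genes, some of the same families. Psmb8, a catalytic subunit of the immunoproteasome, had 51.9, 42.3 and 36.9 in liver, 75.3, 60.7 and 75.8 in spleen and 218, 198 and 187 in thymus. Zbp1, a sensor of Z-form nucleic acid, had 12.3, 10 and 12.2 in liver, 13.7, 9.56 and 12.6 in spleen and 51.4, 38.6 and 44.9 in thymus. Thymus was above both other tissues for both genes, while for Zbp1 spleen and liver overlapped (log2 difference 0.04). Cxcl10, a chemokine that draws T cells and natural killer cells through CXCR3, had 4.63, 3.90 and 4.84 in liver, 6.05, 5.16 and 8.42 in spleen and 14.2, 13.4 and 17.8 in thymus. Oasl2 (61.4, 50 and 59.7 in thymus), Ifit2 (39.6, 43.1 and 38.5) and Trim30a (58.7, 43.5 and 51.8) were likewise higher in every thymus library than in any spleen or liver library.

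Liver was highest for an inhibitor of virus budding and an RNA sensor. Bst2, or tetherin, which holds budding virus at the cell surface, had 152, 161 and 145 in liver, 30.4, 23.7 and 29.7 in spleen and 50.4, 36.1 and 38.4 in thymus. Ifih1, which encodes the double-stranded RNA sensor MDA5, had 74.0, 62.5 and 75.7 in liver, 42.5, 33.3 and 35.9 in spleen and 23.6, 20.0 and 20.6 in thymus. Every liver library was above every other library for both genes, and spleen and thymus stood in opposite order for them. For Ifi44, liver (9.64, 6.02 and 7.69) and thymus (10.8, 7.37 and 9.15) overlapped, and spleen was below both at 1.96, 0.888 and 1.54. In a bulk tissue, fewer cells of a type and less RNA per cell cannot be told apart, and this holds for every difference below too. The scaling moved the tissue counts: with quantile normalisation the median of all genes shifted to 0.28 for spleen and 0.33 for thymus against liver, and the counts became 28 higher and 8 lower for spleen and 27 higher and 4 lower for thymus. With edgeR on recovered reads the counts for thymus against liver were 24 higher and 6 lower. Spleen and thymus libraries of the same number deviated together (r = 0.278, 0.303 and 0.143), and with the number as a block Irf7 (0.46, adjusted p = 0.00123) and Dhx58 (0.33, adjusted p = 0.0122) were also called higher in spleen than in thymus.

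**Figure D1:**
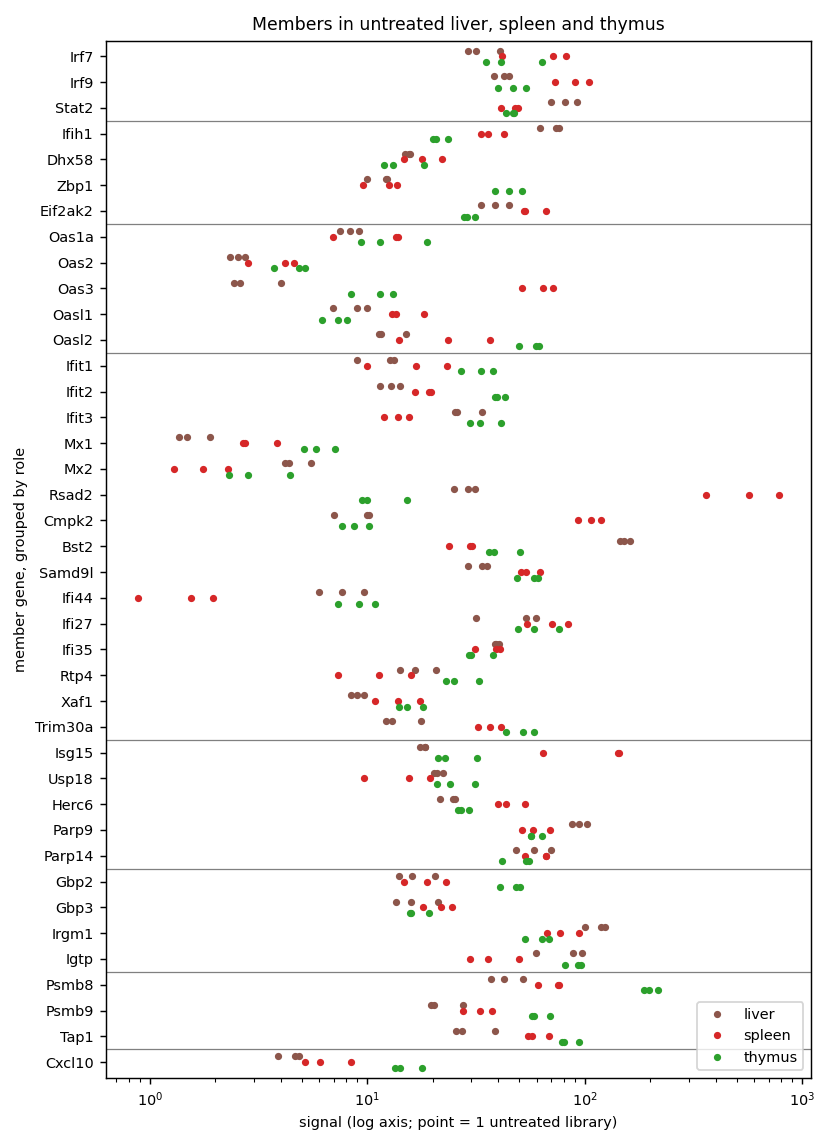
Signal of the 40 genes in untreated wt liver, spleen and thymus of the paired-end table, 1 point per library, on a log axis. Rsad2, Cmpk2, Oas3 and Isg15 are highest in spleen, Psmb8, Zbp1 and Cxcl10 in thymus, and Bst2 and Ifih1 in liver.

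After X-rays, wt spleen had 9 of the 40 genes higher and 2 lower than untreated spleen, where 19.5% and 20.4% of all 13389 genes tested were. The share that rose is near that of all genes and the share that fell is below it. The median log2 difference was 0.26 over the 40 genes and -0.03 over all genes, and 32 of the 40 values were positive. The genes that rose came from different roles: the transcription factor Irf7, the effectors Mx1, Mx2, Ifit3, Bst2 and Ifi35, the modifier Isg15, the peptide transporter subunit Tap1 and the chemokine Cxcl10. None of the 4 RNA sensors, the 5 oligoadenylate synthetases or the 4 guanylate-binding and immunity-related GTPases passed this test. With the replicate numbers as a block, described below, Oas3 and Oasl1 did.

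Cxcl10 had a signal of 6.05, 5.16 and 8.42 in untreated and of 18.1, 35.4 and 23.6 in irradiated spleen, a log2 difference of 1.87 ± 0.24 (SE, n = 3 per group; adjusted p = 0.000803). Mx1, a GTPase that blocks influenza virus, went from 3.83, 2.74 and 2.69 to 8.90, 13.1 and 11.6 (1.70 ± 0.18, adjusted p = 0.000283). In both genes every irradiated library was above every untreated one. Bst2 went from 30.4, 23.7 and 29.7 to 49.9, 54.5 and 47.3, a log2 difference of 0.85 ± 0.12 (adjusted p = 0.00128). Tap1, which carries peptides into the endoplasmic reticulum for MHC class I, went from 68.1, 55.0 and 56.9 to 98.8, 126 and 106, a difference of 0.87 ± 0.13 (adjusted p = 0.00155). For Ifi35, an interferon-induced leucine zipper protein, the signal was 40.8, 31.2 and 38.9 before and 62.5, 55.3 and 58.1 after (0.67 ± 0.13, adjusted p = 0.00385). The 3 genes had no overlap between groups. For Mx2 the values were 2.29, 1.29 and 1.76 against 2.73, 3.62 and 3.89 (0.79 ± 0.19, adjusted p = 0.0122).

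The calls for Ifit3, Irf7 and Isg15 were less firm. Ifit3, an RNA-binding effector, had 15.6, 12.0 and 13.9 untreated and 16.6, 21.1 and 24.3 irradiated (0.55 ± 0.16, adjusted p = 0.0213). Irf7, the transcription factor that amplifies interferon production, had 82.2, 41.5 and 71.5 against 122, 94.8 and 95.1 (0.72 ± 0.23, adjusted p = 0.0365), and Isg15 had 143, 64.1 and 142 against 274, 160.1 and 216 (0.95 ± 0.31, adjusted p = 0.0376). In all 3 the lowest irradiated library was above the highest untreated one by a small margin, and untreated replicate 2 was the lowest library. All 3 calls were lost without untreated replicate 2 or without irradiated replicate 3, those of Ifit3 and Irf7 also without untreated replicate 3, and those of Irf7 and Isg15 also without irradiated replicate 1. The adjusted p then reached 0.0897 for Ifit3, 0.0848 for Irf7 and 0.109 for Isg15, and that of Mx2 reached 0.0576 without irradiated replicate 3. Ifit3 has a near-identical neighbour, Ifit3b, whose reads may not have been told apart.

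In the opposite direction, Ifit2 had 19.6, 19.2 and 16.5 in untreated and 12.3, 12.1 and 10.8 in irradiated spleen, and fell by 0.63 ± 0.11 on the log2 scale (adjusted p = 0.00321). Samd9l, an antiviral restriction factor that also limits growth of blood cells, had 62.2, 50.7 and 53.8 against 30.8, 37.1 and 35.4, and fell by 0.68 ± 0.12 (adjusted p = 0.00291). All irradiated libraries were below all untreated ones for both genes. Within the IFIT family the 3 genes thus had different values, with Ifit3 higher, Ifit2 lower and Ifit1 at 23.3, 9.94 and 16.7 against 25.7, 24.1 and 24.6 (log2 difference 0.64, adjusted p = 0.0681).

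The replicate numbers were taken to pair the spleen libraries, although the labels do not say that they do. Untreated and irradiated libraries of the same number deviated together over all genes, but weakly (r = 0.177, 0.241 and 0.191). With the number as a block, 5 further members passed the test: Ifit1 (adjusted p = 0.0315), Rsad2 (0.71, adjusted p = 0.00616), Oas3 (0.48, adjusted p = 0.0137), Usp18 (0.50, adjusted p = 0.0136) and, lower, Oasl1 (-0.39, adjusted p = 0.023). The total was then 13 higher and 3 lower, and over all genes the calls rose from 5351 to 5709 of 13389. Rsad2 shows the pattern, with 778, 359.8 and 569.9 in untreated and 1088, 702 and 908 in irradiated spleen: the groups overlap, and within each number the irradiated library is the higher one. Usp18, the protease that removes ISG15 and also damps receptor signalling, had 19.4, 9.67 and 15.5 against 24.2, 16.2 and 21.8. Oas1a, Irf9, Stat2, Zbp1, Gbp2 and Psmb8 had log2 differences of 0.33, 0.07, 0.03, -0.01, 0.19 and 0.14, and none passed with or without the block.

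**Figure D2:**
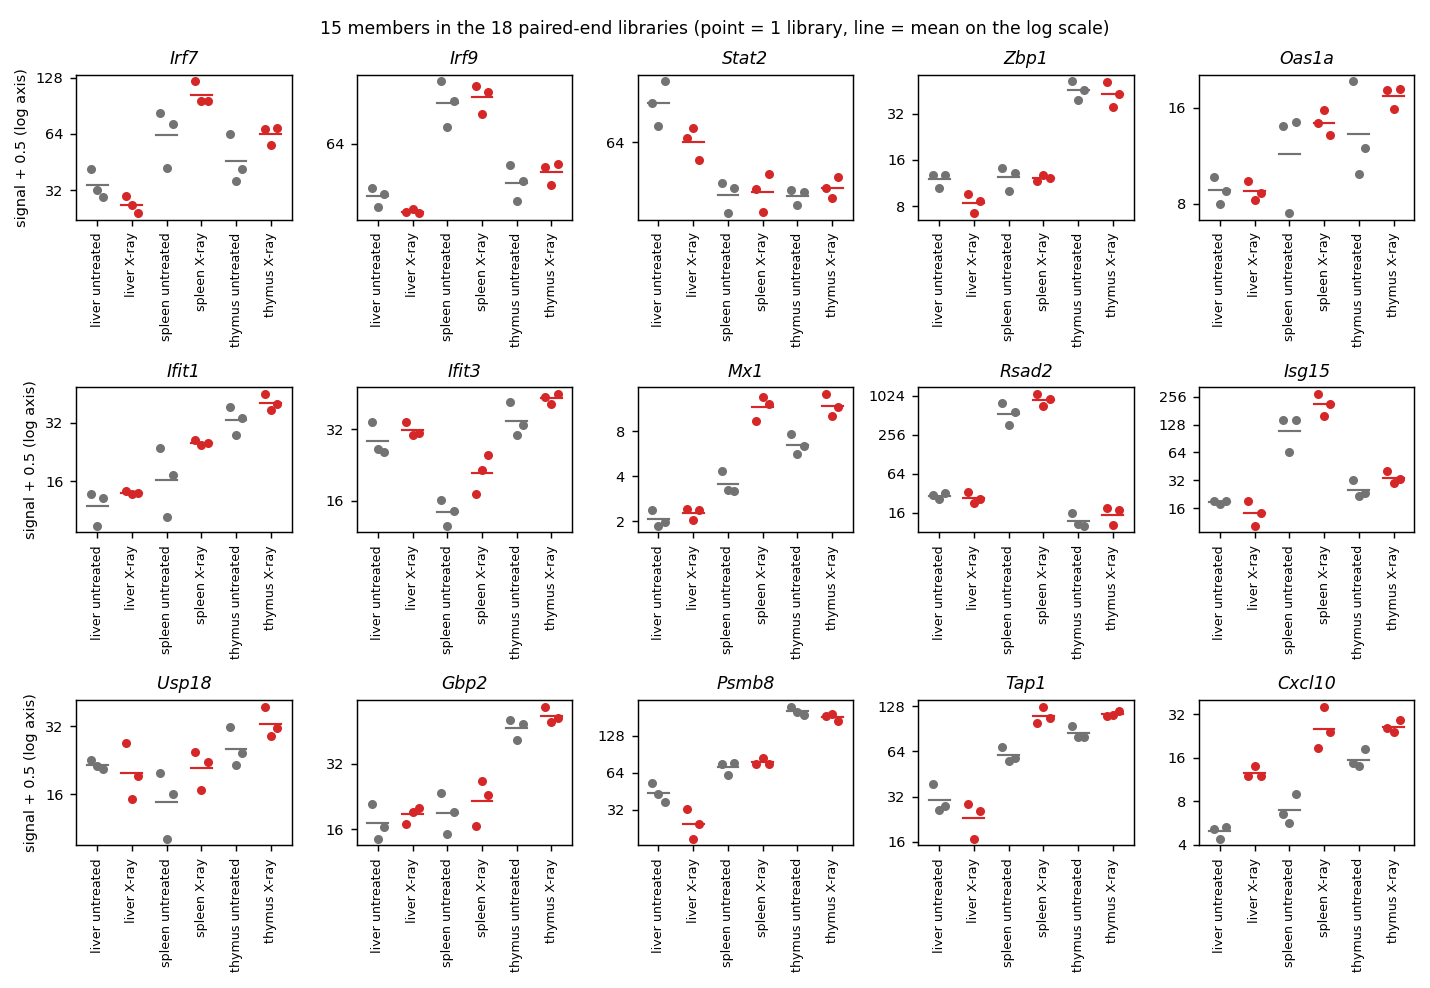
Signal plus 0.5 on a log axis for 15 of the genes in untreated and irradiated wt liver, spleen and thymus, 1 point per library (n = 3 per group). Cxcl10 and Mx1 in spleen show irradiated points above all untreated ones, and Psmb8 and Stat2 points lie close together in spleen and thymus.

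In irradiated wt thymus 6 of the 40 genes were higher than in untreated thymus and none was lower (limma). Of all 13810 genes tested, 9.77% were higher and 11.6% lower. An unadjusted p under 0.05 was found for 18 of the 40, with no share of all genes beside it, so nothing is read from that count. The median log2 difference was 0.26, against 0.01 over all genes. Of the 6 genes called, 5 also rose in spleen: Cxcl10, Mx1, Bst2, Tap1 and Ifi35. Cxcl10 had 14.2, 13.4 and 17.8 untreated and 25.0, 23.6 and 28.4 irradiated (0.75 ± 0.12, adjusted p = 0.00343). Mx1 had 7.14, 5.10 and 5.84 against 13.7, 9.55 and 11.1 (0.87 ± 0.16, adjusted p = 0.00585). Neither overlapped between groups. Bst2 went from 50.4, 36.1 and 38.4 to 67.5, 62.2 and 62.6 (0.63 ± 0.12, adjusted p = 0.00634), Tap1 from 93.6, 78.9 and 79.8 to 109.6, 112 and 119 (0.43 ± 0.09, adjusted p = 0.00787) and Ifi35 from 37.7, 29.5 and 29.9 to 48.8, 44.8 and 45.5 (0.52 ± 0.10, adjusted p = 0.00808).

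The sixth gene was Igtp, an immunity-related GTPase that acts on the vacuoles of intracellular parasites. It had 96.4, 81.2 and 93.3 in untreated and 150.3, 135 and 136 in irradiated thymus, a log2 difference of 0.64 ± 0.09 (adjusted p = 0.00144). Its groups were far apart in thymus. In spleen its log2 difference was 0.28 (adjusted p = 0.227), and the difference between the 2 tissues did not pass (spleen minus thymus -0.36, adjusted p = 0.386). All 6 thymus calls held when any 1 library was left out, and that of Tap1 was lost with 1 fit of all 18 libraries (adjusted p = 0.107). Irf7 (63.5, 35.2 and 41.2 against 67.7, 55.1 and 68.5) and Isg15 (31.8, 21.2 and 22.8 against 39.9, 29.2 and 32.2) overlapped between groups, with log2 differences of 0.49 and 0.42 (adjusted p = 0.092 and 0.0867). Among the other genes, no oligoadenylate synthetase, RNA sensor or transcription factor passed this test, which had no block. The largest log2 difference short of the threshold was 0.61, for Mx2 (adjusted p = 0.0738). With the replicate number as a block, 17 members were called, 16 higher and 1 lower, and 4270 genes in all. Thymus libraries of the same number had r = 0.0554, 0.476 and 0.249, and the lowest missed the cutoff of 0.1 used for pairing.

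In irradiated wt liver, Cxcl10 alone passed the test, and no member was called lower. Of all 13250 genes tested, 0.204% were higher and 0.0377% lower, 32 genes in all. Cxcl10 had a signal of 4.63, 3.90 and 4.84 in untreated and of 11.5, 13.6 and 11.4 in irradiated liver, a log2 difference of 1.35 ± 0.15 (adjusted p = 0.00948). The groups lay far apart, yet in a comparison with so few calls the adjusted p rose above the threshold, up to 0.0954, without any 1 untreated library or without irradiated replicate 3. The log2 difference was negative for 27 of the 40 genes and their median was -0.12, against -0.05 over all genes.

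The lowest liver values belonged to the immunoproteasome and to an RNA sensor, and none passed. Psmb8 had 51.9, 42.3 and 36.9 in untreated and 32.2, 18.2 and 23.9 in irradiated liver (-0.83 ± 0.21, adjusted p = 0.173), and Psmb9, the neighbouring subunit gene, had 27.5, 20.3 and 19.6 against 19.2, 7.50 and 11 (-0.90 ± 0.30, adjusted p = 0.192). Dhx58, which encodes the MDA5 regulator LGP2, had 14.9, 15.8 and 15.5 against 14.4, 7.08 and 7.6 (-0.71 ± 0.24, adjusted p = 0.193). In all 3, irradiated replicate 1 was the highest irradiated library. Without that library 7 members were called in liver, 6 of them lower, and 2836 genes in all. With 1 fit over all 18 paired-end libraries 6 members were called, 5 of them lower, and 1715 genes in all. Mx1, Bst2, Tap1 and Isg15 had log2 differences of 0.14, -0.49, -0.40 and -0.41 in liver (adjusted p = 0.655, 0.193, 0.31 and 0.267).

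The effect of X-rays differed between the tissues for 13 of the 40 genes, by an F test of the interaction over the 18 paired-end libraries, where 30.5% of all 15654 genes did. They were Bst2, Mx1, Ifi35, Ifit2, Tap1, Psmb8, Psmb9, Igtp, Cxcl10, Samd9l, Isg15, Irf7 and Dhx58. Between spleen and liver the change after X-rays was higher in spleen for 8 genes and lower for 2, Ifit2 (-0.65) and Samd9l (-0.57), where 13.6% and 12.8% of all genes were. The 8 were Mx1 (1.56), Isg15 (1.36), Bst2 (1.35), Tap1 (1.27), Psmb9 (1.11), Irf7 (1.07), Psmb8 (0.97) and Ifi35 (0.86). Between thymus and liver the change was higher in thymus for 6 genes and lower for none (8.37% and 7.14% of all genes): Bst2 and Psmb9 (both 1.12), Dhx58 (0.97), Igtp (0.95), Tap1 (0.83) and Ifi35 (0.71). Between spleen and thymus, Cxcl10 (1.12) and Mx1 (0.83) changed more in spleen, and Ifit2 changed downward there (-0.69), where 4.15% and 5.39% of all genes passed in the 2 directions. Of the 13 calls, 7 were lost when single libraries were left out. Those of Isg15, Irf7, Samd9l and Dhx58 were each lost in 6 or more of the 18 such fits, with adjusted p up to 0.101, 0.111, 0.103 and 0.134 over all alternatives. Cxcl10 was lost without untreated spleen replicate 2, untreated thymus replicate 3 or irradiated thymus replicate 2 (up to 0.0593), and Igtp (0.0528) and Psmb9 (0.0569) without untreated liver replicate 1.

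**Figure D3:**
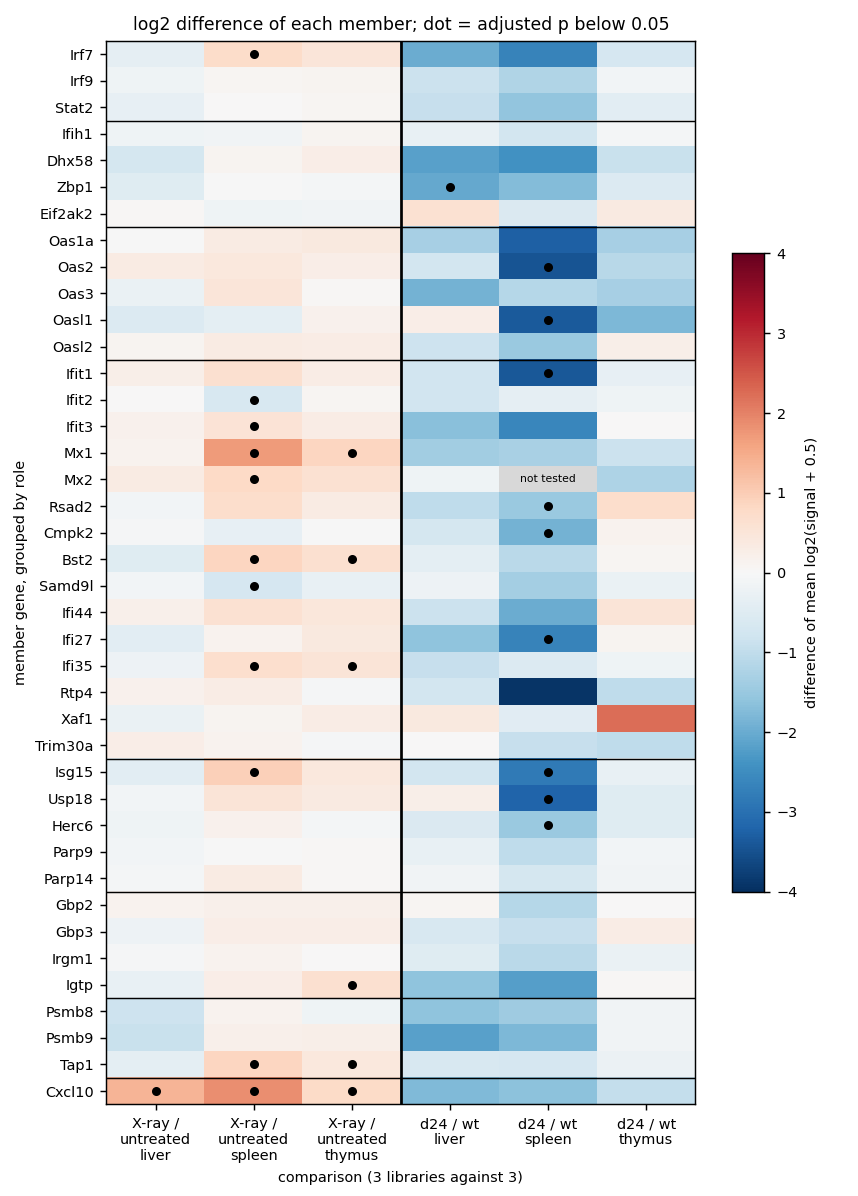
Log2 differences of the 40 genes, grouped by role, for X-rays against untreated in 3 wt tissues and for d24 against wt in the same tissues. Colour runs from -4 (lower) to 4 (higher), and a dot marks an adjusted p under 0.05. The X-ray columns hold 11 dots for spleen, 6 for thymus and 1 for liver, and the d24 spleen column is negative throughout, with 9 dots. Of its 39 genes, 3 were admitted through the wt libraries alone.

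The genes that act before these targets moved in both directions in spleen. No row of the tables gave a testable level of an interferon: of the 21 interferon genes listed, rows were present for Ifng, Ifnl2 and Ifnl3, and the paired-end libraries held 0 to 23 reads of Ifng, with a median of 8. In the single-end table Ifng had 42, 12 and 43 reads in d24 thymus and 0 in each wt thymus library, too few to pass the filter. Among 10 receptor and kinase genes tested in irradiated spleen, Ifngr2, a subunit of the interferon gamma receptor (0.73), and Il10rb (0.40) rose and none fell. Among 16 nucleic acid sensors and adaptors, 8 rose and 2 fell. Ikbke, the kinase that activates IRF3 and IRF7, rose by 1.96 ± 0.11 (adjusted p = 9.48e-06), Tlr9 by 0.95 and Sting1 by 0.77, and Cgas, which makes the signal that STING reads, fell by 0.72. In thymus, Ikbke (1.02) was the only one of these 16 to be called. Of the brakes on interferon signalling, Socs1 rose in both tissues, with log2 differences of 0.57 in spleen and 0.80 in thymus.

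Other interferon targets were counted against the same shares of all genes, 19.5% higher and 20.4% lower in spleen and 9.77% and 11.6% in thymus. Of 25 interferon gamma and antigen presentation genes outside the 40, 13 rose and 1 fell in irradiated spleen, among them Psme2 (0.84), Irf8 (0.94), H2-Eb1 (0.66) and H2-Ab1 (0.65), with Gbp7 (-0.56) lower. In thymus 3 rose and 1 fell. Of 49 further type I interferon targets, 11 rose and 6 fell in spleen, and 4 rose and 3 fell in thymus, near or below the shares of all genes. Ifi207 (1.21) and Parp10 (0.67) rose in spleen, and Slfn9 fell by 1.07 and Pnpt1 by 0.86. In liver none of the tested genes of either list was called.

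Markers of other cells moved with irradiation in the same libraries. In spleen all 9 macrophage markers tested rose, with a summed signal of 499.6 to 659 untreated and 829.8 to 1304 irradiated, and 4 of 8 B cell markers rose and 1 fell. Of the plasmacytoid dendritic cell markers 1 of 8 rose, and their sum was 171 to 174 untreated and 275 to 414 irradiated. Monocyte and neutrophil markers, of which 5 of 9 rose, summed to 374 to 478 against 468 to 1021, and erythroid markers, of which none of 7 was called (1 with an unadjusted p under 0.05), to 48670.4 to 72791 against 79312 to 121772. Of the hepatocyte markers 8 of 9 rose, with a sum of 46.2 to 67.8 in untreated spleen and of 98.8, 566 and 484 in irradiated replicates 1 to 3. In thymus 6 of 8 thymic epithelial markers rose, with sums of 1297 to 1371 against 1900.3 to 2173. Natural killer cell markers there summed to 71.4 to 84.6 untreated and 32.4 to 45.1 irradiated. Macrophage markers summed to 224 to 289 against 293 to 434, and thymocyte and T cell markers overlapped (7218 to 8247 against 7235 to 9138). Hepatocyte markers summed to 61.9 to 226 in untreated thymus and to 180.5, 204 and 1617 in irradiated replicates 1 to 3. Whether these cells contributed to the values of the 40 genes was not tested.

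After subtracting each tissue's mean, the genes whose log2 signal followed that of Cxcl10 most closely over the 18 paired-end libraries were Icam1 (Pearson r = 0.986), the p53 target Tnfrsf10b (0.964), Gdpd5 (0.951), Micall1 (0.951) and Tnfaip3 (0.951). Those closest to Irf7 were Ifi27l2a (0.901), Rnf19b (0.891), Isg15 (0.889), H2-T23 (0.887) and Ifi35 (0.885). The 5 genes beside Cxcl10 and the 5 beside Irf7 have none in common. The libraries share tissue and treatment, so these correlations over 11625 genes are descriptions.

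Part of the spread between replicates was shared by most of the 40 genes. In untreated tissues of the paired-end table, replicate 1 was the highest of 3 for 27 of the 40 genes in liver, 35 in spleen and 35 in thymus, and replicate 2 was the lowest for 28, 37 and 31. The median deviation of the 40 genes from the untreated mean was 0.24, -0.25 and 0.03 in untreated spleen and 0.26, 0.28 and 0.26 in irradiated spleen. Untreated replicate 1 of spleen thus lay close to the irradiated libraries. In untreated thymus the medians were 0.19, -0.18 and -0.05, and in irradiated thymus 0.26, 0.11 and 0.30.

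**Figure D4:**
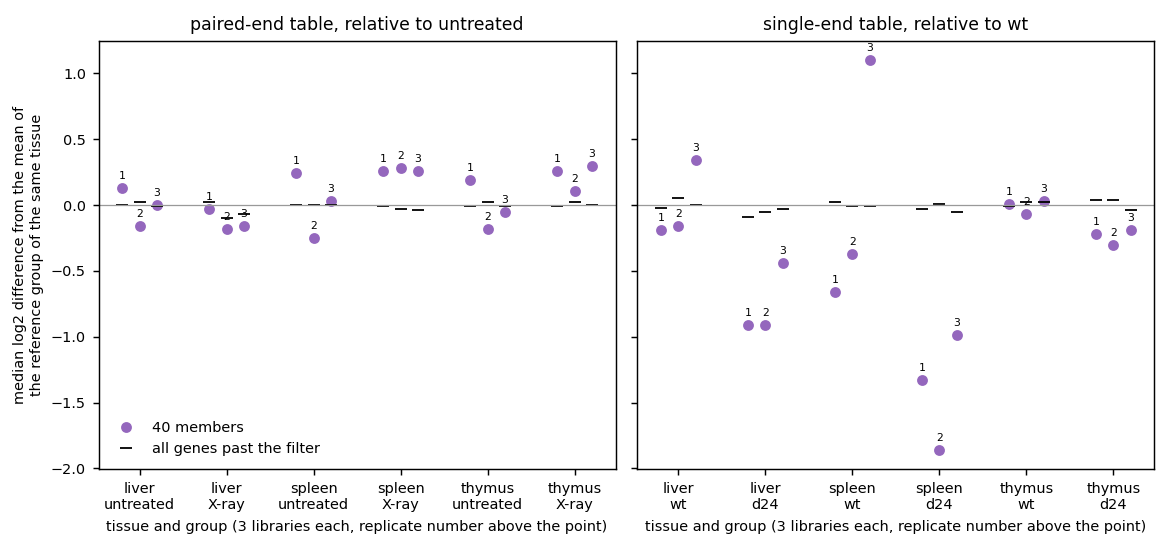
Median over the 40 genes of each library's log2 difference from the mean of its reference group (untreated wt for the paired-end table, wt for the single-end table), beside the median over all genes. In single-end spleen, wt replicate 3 lies at 1.10 and the d24 libraries between -1.86 and -0.99.

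The single-end libraries were checked for the response to irradiation before genotypes were compared. The summed signal of 8 p53 target genes was 137 to 146 in untreated and 463 to 549 in irradiated paired-end liver, 188 to 201 and 1357 to 1453 in spleen, and 203 to 219 and 1049 to 1152 in thymus. In the single-end table the wt sums were 188, 177 and 303 in liver, 237, 232 and 267 in spleen and 241, 244 and 283 in thymus. The d24 sums were 611, 646 and 346 in liver, 1067, 1467 and 1234 in spleen and 473, 433 and 576 in thymus. The wt spleen and thymus libraries titled as irradiated thus lie nearer to the untreated sums, and so do the wt liver libraries at 188 and 177. The wt liver library at 303 and the d24 thymus libraries lie between the untreated and the irradiated sums. The d24 thymus sums are all above those of single-end wt thymus. The d24 liver and spleen libraries lie nearer to the irradiated sums. The tables were normalised separately, so such levels are only side by side. Genotype and irradiation state cannot be told apart in what follows, and the libraries are called by their titles.

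The spleens labelled d24 had 9 of 39 tested genes lower than the wt spleens and none higher, where 1.24% and 1.04% of all 13554 genes tested were. Oas2, Oas1a and Ifi44 passed the filter on low values through the wt libraries alone, so they had to be lower in d24, and Mx2 did not pass it. Of the other 36 genes 8 were called lower, and all 36 log2 differences were negative, with a median of -1.45 against -0.05 over all genes. Of the 36, 24 had every d24 library below every wt library, as 10.6% of all genes did. Among the 8, Oasl1 and Usp18 also passed the filter mainly through the wt libraries, as their values below show. Effectors, oligoadenylate synthetases and the ISG15 enzymes provided the calls.

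Oasl1, an oligoadenylate synthetase-like protein that regulates Irf7 translation, had a signal of 7.15, 10.6 and 21.9 in wt and of 0.811, 0.138 and 1.64 in d24 spleen, and fell by 3.35 ± 0.60 on the log2 scale (adjusted p = 0.0128). Oas2 had 3.03, 2.77 and 20.9 in wt and 0.203, 0.0345 and 0 in d24 (-3.45 ± 0.76, adjusted p = 0.0365). Since its wt values alone admitted it to the test, its direction was fixed by the filter, and the call was lost without any 1 of the d24 libraries. Ifit1, which binds RNA without a mature cap, had 18.7, 23.1 and 184 against 4.40, 2.62 and 4.26, and fell by 3.39 ± 0.69 (adjusted p = 0.025). Cmpk2 had 121, 101 and 131 against 21.7, 53.3 and 26.0 and fell by 1.89 ± 0.34 (adjusted p = 0.0123). Its neighbour Rsad2 had 579.8, 564 and 935 against 183, 205 and 381 and fell by 1.47 ± 0.33 (adjusted p = 0.042). None of these genes overlapped between genotypes.

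Of the 5 genes of ISG15 conjugation and PARP enzymes 3 fell. Isg15 had 57.2, 74.1 and 453 in wt and 14.0, 10 and 35.4 in d24 spleen (-2.82 ± 0.66, adjusted p = 0.0487). Its protease Usp18 had 7.82, 10 and 45.3 against 0.869, 0.483 and 3.35 (-3.20 ± 0.70, adjusted p = 0.0352), and its mouse ligase Herc6 had 50.1, 51.5 and 83.3 against 18.8, 16.5 and 30.4 (-1.48 ± 0.33, adjusted p = 0.0395). Ifi27, a small mitochondrial protein gene, had 27.2, 29.2 and 129 against 12.3, 2.59 and 10.1 (-2.67 ± 0.63, adjusted p = 0.0492). In each the highest wt library was replicate 3. Irf7 had 44.2, 51.4 and 419.9 in wt and 13.4, 8.63 and 30.1 in d24, with no overlap and short of the threshold (-2.66, adjusted p = 0.0858). Stat2 had 33.6, 38.4 and 41.0 against 21.6, 9.67 and 8.53, also without overlap (-1.59, adjusted p = 0.0501).

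One wt spleen library, replicate 3, stood apart from its group. It was the highest of the 3 wt libraries for 36 of the 40 genes and at least 2-fold above both others for 26 of them. Oas1a shows it most plainly, with 2.74, 1.86 and 59.6 in wt and 0.840, 0.242 and 0 in d24 spleen, and Rtp4 had 7.08, 8.05 and 91.9 against 5.47, 0.0691 and 0. Oas1a also has a near-identical copy, Oas1g. Without wt replicate 3, 36 genes passed the filter, 2 were called lower, Cmpk2 (-1.81 ± 0.35, adjusted p = 0.0275) and Ifit1 (-2.35 ± 0.42, adjusted p = 0.0212), and 35 of the 36 log2 differences were negative, with a median of -0.86. Of the 9 calls none held in all fits that left out a library. The count was 4, 1 and 5 without d24 replicates 1, 2 and 3, and 12 and 10 without wt replicates 1 and 2.

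Marker genes of blood and immune cells differed in the same libraries. The summed signal of 10 monocyte and neutrophil markers was 2640, 3235 and 8169 in wt and 975, 284 and 128 in d24 spleen, and 7 of the 10 were called lower. For plasmacytoid dendritic cells, which produce interferon, the sums were 137 to 162 in wt and 119.9, 49.6 and 87.9 in d24, with Siglech called lower (-3.07) and Klk1 at 0 in d24. Natural killer cell markers summed to 17.3, 23.6 and 80.7 against 8.05, 4.94 and 10.5, and B cell markers to 541, 661 and 479.9 against 343, 64.2 and 207. Macrophage markers overlapped, at 611, 642 and 1383 against 1079.9, 653 and 1241. The part of these cells in the lower values was not tested. Among genes around the pathway, Socs3 was higher in d24 spleen (2.80 ± 0.38, adjusted p = 0.00206), and of 48 further type I interferon targets Apobec3 was called lower (-1.30) and 42 log2 differences were negative.

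**Figure D5:**
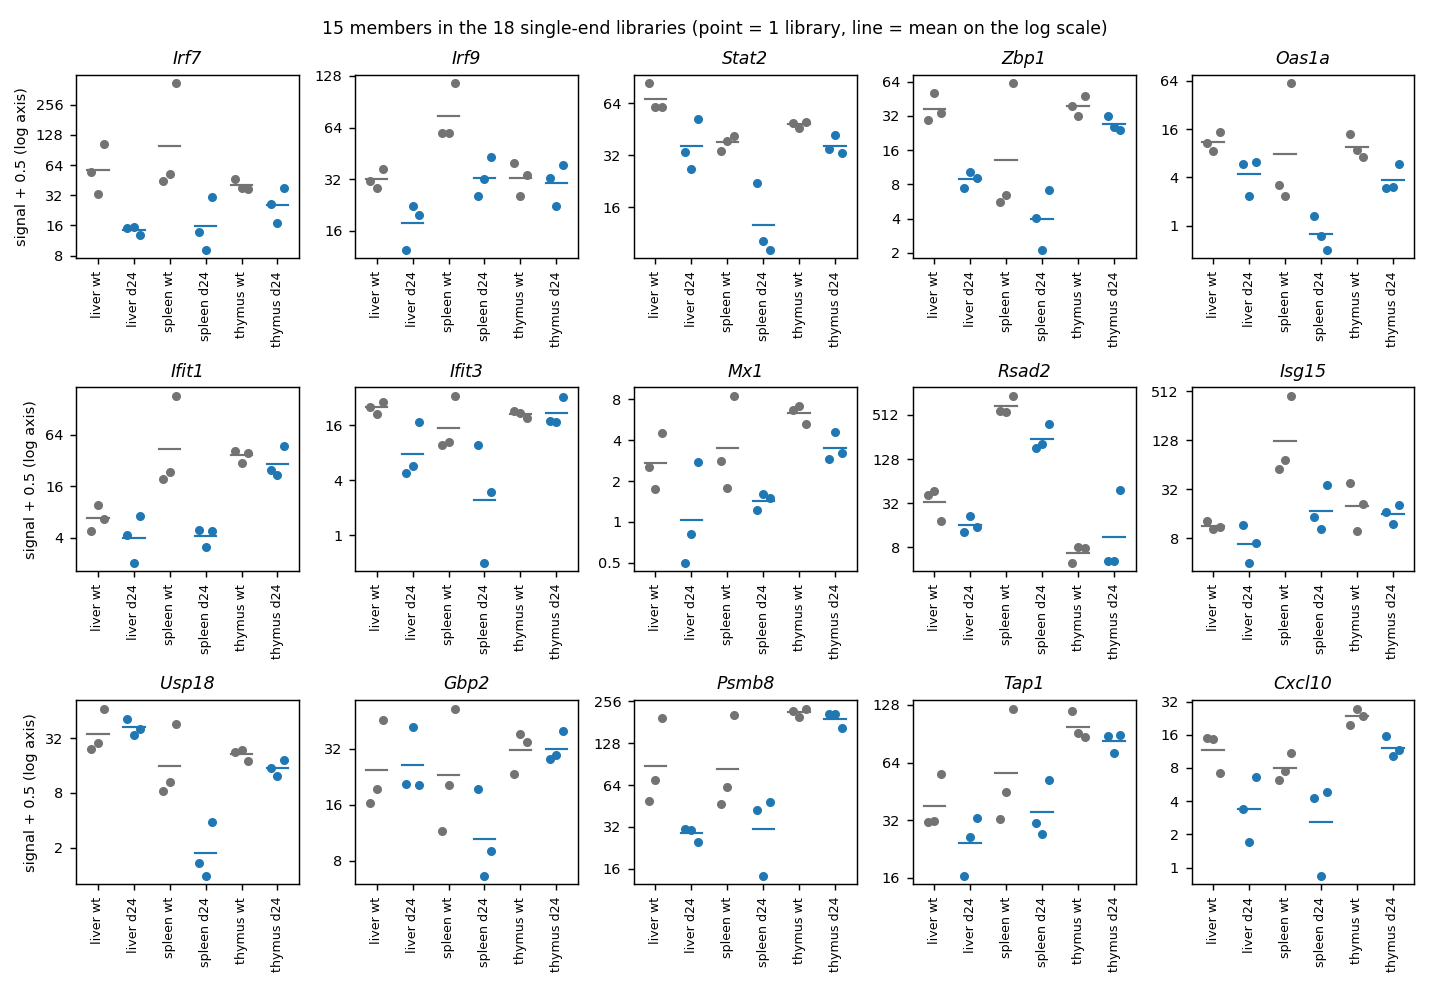
Signal plus 0.5 on a log axis for 15 of the genes in single-end libraries labelled wt and d24, in liver, spleen and thymus, 1 point per library (n = 3 per group). In spleen, Ifit1, Isg15, Usp18 and Rsad2 show all d24 points below all wt points, and 1 wt point, replicate 3, far above the others for Oas1a and Irf7.

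In livers labelled d24, Zbp1 alone was called lower and no member higher, where 0.248% and 0.277% of all 13695 genes were. Zbp1 had 28.7, 49.8 and 33.5 in wt and 6.98, 9.69 and 8.64 in d24 liver, and fell by 2.05 ± 0.33 on the log2 scale (adjusted p = 0.0302). The groups were well apart, but the call was lost without each library except d24 replicate 3, up to an adjusted p of 0.253. The log2 difference was negative for 34 of the 40 genes, with a median of -0.76 against -0.08 over all genes, and 20 of the 40 had all d24 libraries below all wt libraries, as 11.5% of genes did.

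Among those without overlap in liver, Psmb9 had 31.1, 27.6 and 63.6 in wt and 12.5, 7.05 and 5.83 in d24 liver (-2.17, adjusted p = 0.0538). Irf7 had 53.4, 32.8 and 104 against 14.5, 15 and 12.4 (-1.99, adjusted p = 0.0629), and Dhx58 had 9.26, 9.69 and 19.8 against 1.68, 3.20 and 2.25 (-2.17, adjusted p = 0.0862). In all 3 the genotypes did not overlap and wt replicate 3 was the highest library. Cxcl10 had 14.4, 14.2 and 6.75 in wt and 2.93, 1.2 and 6.18 in d24 liver, again without overlap (-1.78, adjusted p = 0.215). Monocyte and neutrophil markers summed to 409, 778 and 917 in wt and 13.4, 84.5 and 23.2 in d24 liver, and 5 of 9 were called lower. B cell markers summed to 27.3, 57.9 and 79.1 against 8.29, 7.61 and 7.52 (1 of 5 called lower), and thymocyte and T cell markers to 73, 71.4 and 108 against 28.1, 25.9 and 32.4 (2 of 9 called lower). Other lists were not lower. Macrophage markers overlapped, at 1541, 1574 and 3404 in wt against 1374, 2284 and 1528 in d24 liver. Natural killer cell markers did too, at 17.9, 19.1 and 58.1 against 26.6, 36.5 and 22.4. Endothelial marker sums were higher in d24, at 456, 347 and 349 against 492, 988 and 619. The part of these cells in the values of the 40 genes was not tested.

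In thymuses labelled d24, limma called no member in either direction, where 0.00724% of all 13818 genes were higher and 0% lower. An unadjusted p under 0.05 (limma) was found for 11 of the 40 genes, with no share of all genes beside it, so nothing is read from that count. Of the 40 genes edgeR called 0 and DESeq2 2, where over all genes they called 2 and 266. The median log2 difference was -0.22, against -0.02 over all genes, and 10 of the 40 genes had all d24 libraries below all wt libraries (7.55% of all genes did). Xaf1, a proapoptotic antagonist of XIAP, was the gene with every d24 library above every wt library: it had 11.7, 5.83 and 10.2 in wt and 42.2, 35.8 and 54.0 in d24 thymus (2.23 ± 0.31, adjusted p = 0.0763). In the other direction Oasl1 had 10.5, 9.35 and 5.37 against 2.12, 3.38 and 1.01 (-1.79, adjusted p = 0.336), and Cxcl10 had 19.2, 27.1 and 23.4 against 15.1, 9.68 and 11.1 (-0.94, adjusted p = 0.345). Rsad2 stood out in a single library, with 4.66, 4.66 and 48.1 in d24 and 4.40, 7.56 and 7.26 in wt. In that d24 library, replicate 3, hepatocyte markers summed to 1385 (40.7 and 103 in the other two) and erythroid markers to 3591 (10.7 and 9.91).

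No member had a difference between genotypes that itself differed between tissues by the interaction F test of limma, where 0.988% of all 16092 genes did. An unadjusted p under 0.05 (limma) was found for 16 of the 40 genes. No share of all genes stands beside that count, so nothing is read from it. Of the 40 genes edgeR called 0 and DESeq2 4, where over all genes they called 46 and 504. The larger number of calls in spleen than in liver or thymus is therefore not shown to be a difference between tissues.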

How the data were processed

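Tissue went into RNAlater, RNA was isolated by RNeasy and libraries came from the TruSeq Stranded Total RNA protocol, per the labels. The authors deposited 1 table per layout with a normalised signal per gene and library. This signal is reads per 1000000 of an effective library size: in every column 100% of the values were whole multiples of 1 step (tolerance 0.01 of a step), while column totals differed around a geometric mean of 1000000. The analysis had been planned for plain CPM, which lacks the composition factor, and the planned test for normalised values was kept. A read was worth 0.00991 to 0.0377 units of signal in the paired-end and 0.0171 to 0.0828 in the single-end table, so values near these rest on few reads. The submitters' processing notes name edgeR and mm10. The aligner, the counting program and the strand setting were not given in the sources used here. Of the 36 columns of the paired-end table, 18 belong to none of these libraries and were left out.

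Rows carry gene numbers, of which 18380 of 19001 and 17186 of 17697 were matched to symbols of RefSeq (GRCm38.p6). A gene entered a comparison when its signal reached 1 or more in 3 or more of the libraries compared. Tests were made within a table by limma 3.58.1 (R 4.3.3, trend) on log2(signal + 0.5), adjusted by Benjamini-Hochberg across the genes tested, at a threshold of 0.05. Interactions were F tests over the 18 libraries of a table. The scripts were tested on simulated data. Alternatives were pseudocounts of 0.1 and 2, no filter, a mean of at least 5, median-ratio scaling, quantile normalisation, edgeR 4.0.16 and DESeq2 1.42.0 on the recovered reads, the replicate number as a block, 1 fit per table, and leaving out each library.

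The 40 genes and the gene lists were chosen with earlier results of these data known. Genes were named by rule: 15 genes in every X-ray and d24 comparison, the 8 called members of smallest p and the 2 called members most against the majority direction in each comparison, up to 4 called genes per list, and the 5 genes most like Cxcl10 and Irf7. Other members are named as examples chosen after their values were seen. Replicate numbers were taken to pair libraries where every pair of the same number had a correlation of deviations over 0.1. This held for spleen after X-rays (0.177, 0.241 and 0.191) and for untreated spleen and thymus (0.278, 0.303 and 0.143). For thymus after X-rays it failed through replicate 1 (0.0554, 0.476 and 0.249).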

Additional observations from a re-analysis of the deposited data

Results flagged for a closer look

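The change after X-rays differed between liver, spleen and thymus, by the interaction F test over the 18 paired-end libraries, for 13 of the 40 genes, where 30.5% of all genes passed, so the count is near that of genes at large. Of the 13 calls, 7 were lost in fits without 1 library (Dhx58, Isg15, Irf7, Samd9l, Cxcl10, Igtp and Psmb9). The F value was 22.5 for Bst2, 18.6 for Mx1, 14.3 for Ifi35, 13.7 for Ifit2 and 13.3 for Tap1. It was 9.47 for Psmb8, 8.29 for Psmb9, 8.16 for Igtp and 7.5 for Cxcl10. For Samd9l it was 6.21, for Isg15 6.06, for Irf7 5.95 and for Dhx58 5.52.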

How the results depend on the processing

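Counts of called members moved as follows. With DESeq2 on recovered reads they were 2 for X-rays in liver (1 in the analysis reported), 10 for X-rays in thymus (6), 7 for d24 in liver (1), 16 for d24 in spleen (9), 2 for d24 in thymus (0) and 4 for the difference of the d24 effect between tissues (0). With edgeR they were 0 for d24 in liver and 2 for d24 in spleen. Over all genes the analysis reported called 32, 5351 and 2945 for X-rays in liver, spleen and thymus and 72, 309 and 1 for d24. DESeq2 called 631, 5881 and 3677 and 531, 597 and 266, and edgeR 32, 5272 and 2989 and 11, 145 and 2. With 1 fit of all 18 libraries the counts were 6 for X-rays in liver, 0 for d24 in liver and 18 for d24 in spleen. A pseudocount of 2 gave 2 for d24 in liver, a pseudocount of 0.1 gave 3 for d24 in spleen, and no filter gave 0 and 1. The log2 difference of Ifi35 between untreated thymus and liver was -0.29 and became 0.10 with quantile normalisation. The causes were not tested. Of the values of single called members under these settings, 1110 kept their direction and their side of the threshold and 75 lost the call. This pool includes the many calls between untreated tissues. Of the d24 calls in liver and spleen, only that of Cmpk2 in spleen held under all settings that kept every library.

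With the replicate block, counts were 17 for X-rays in thymus, 0 for d24 in liver, 22 for d24 in spleen, 16 for X-rays in spleen and 1 for the difference of the d24 effect between tissues. By the cutoff of 0.1 for every pair, the numbers were not taken to pair the thymus (r = 0.0554, 0.476 and 0.249) or the d24 and wt libraries. In thymus only the r of replicate 1 missed that cutoff. For X-rays in liver the block left the count at 1. For the difference of the X-ray effect between tissues the block gave 18 members (13 in the analysis reported). Over all genes those calls fell from 4770 to 4351. That fit used the number as a block in every tissue, thymus included.

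Leaving out each library gave 0 to 7 called members for X-rays in liver, 7 to 14 in spleen and 6 to 14 in thymus. For d24 it gave 0 to 2 in liver, 1 to 12 in spleen and 0 to 2 in thymus. For untreated tissues it gave 28 to 34 (spleen and liver), 25 to 29 (thymus and liver) and 27 to 32 (spleen and thymus), and for the tissue differences 8 to 13 for X-rays and 0 to 1 for d24.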
